A study of Zea mays with 12 samples.

Results

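The 9 maize (Zea mays) genes described here were chosen by their gene identifiers, as JAZ or TIFY genes of the TIFY family, out of 39514 genes in each of the 2 deposited tables. A later maize gene table names 8 of them: JAZ9 (also TIFY13; GRMZM2G145407), TIFY1 (also ZIM26; GRMZM2G343157), TIFY4 (GRMZM2G445634), TIFY6 (also TIFY7; GRMZM2G117513), TIFY15 (GRMZM2G005954), TIFY24 (GRMZM2G126507), TIFY27 (GRMZM2G089736) and TIFY30 (also ZIM34; GRMZM2G143402). The ninth, GRMZM2G024680, has no name there, and its place in the family was not checked. RNA was sequenced from Sdw3, labelled a maize mutant, and from N18, which the labels give as the other cultivar. The ligular region, where blade and sheath meet and the ligule forms, was taken from leaf 8 and leaf 9, and the internode, the growing stem segment, from between leaf 7 and leaf 8, all at stage V7. There were 3 Sdw3 and 3 N18 samples of each tissue, 12 in all. The labels do not give the allele of Sdw3, whether it is in the N18 background, how many plants a sample holds or whether the 3 samples were separate plants.

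JAZ proteins (jasmonate ZIM-domain) repress the response to jasmonate, a hormone of wounding, defence and growth restraint. In Arabidopsis they bind MYC2-type transcription factors and bring in TOPLESS-type corepressors through the adaptor NINJA, and the active hormone joins them to the receptor COI1, which marks them for destruction. Because MYC factors also switch on JAZ genes, JAZ transcripts are widely read as markers of jasmonate response. The family name comes from the conserved TIFY motif, and not every TIFY protein is a JAZ repressor. The names above do not say which of these genes act as repressors in maize, so no individual role is given to them.

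Each level below is 1 FPKM (fragments scaled to transcript length and library size, which allows levels of different genes to be compared) that the authors combined over the samples of a genotype in a tissue. No value per sample and no read depth are known, so the spread between samples cannot be shown beside a level, and the overlap of the genotypes cannot be read sample by sample. A gene is called higher or lower in Sdw3 when the authors' deposited table gives it an adjusted p under 0.05. The approximate standard error (SE) and 95% interval of a log2 ratio were worked back from the authors' test statistic and p-values. In whole-tissue RNA, fewer cells of a type and less RNA per cell cannot be told apart. As a check of the tissue labels, the ligule gene lg1 was at 15.0 FPKM in Sdw3 and 14.9 in N18 in the ligular region, but at 0.183 and 0.125 in the internode. The other genes listed as ligule and leaf patterning markers did not all follow lg1. While lg2 was also higher in the ligular region, lg3, lg4a and lg4b were higher in the internode. There lg3 was at 51.5 in Sdw3 and 34.2 in N18, against 0 and 0.0727 in the ligular region. The stem and meristem gene kn1 was at 180 in Sdw3 and 172 in N18 in the internode and is listed at 0 for both genotypes in the ligular region.

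The comparison of Sdw3 with N18 in the ligular region gave lower JAZ and TIFY transcripts in Sdw3. Of the 9 genes, 8 were tested, and 6 of these were called lower: JAZ9, TIFY1, TIFY4, TIFY6, TIFY27 and TIFY15. The other 2 tested genes, TIFY24 and TIFY30, were also at lower FPKM in Sdw3 but were not called, and none was called higher (in the authors' deposited table also 0 at an unadjusted p under 0.05). Among all 22721 genes tested in this tissue 13.7% were called lower and 13.1% higher, and among the 12998 that reached an FPKM of 10 in at least 1 genotype 15.9% were called lower. The median log2 ratio of the 8 tested genes was -0.59, against -0.0016 for all tested genes. Summed over the 9 genes, FPKM was 753 in Sdw3 and 1175 in N18.

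**Figure D1:**
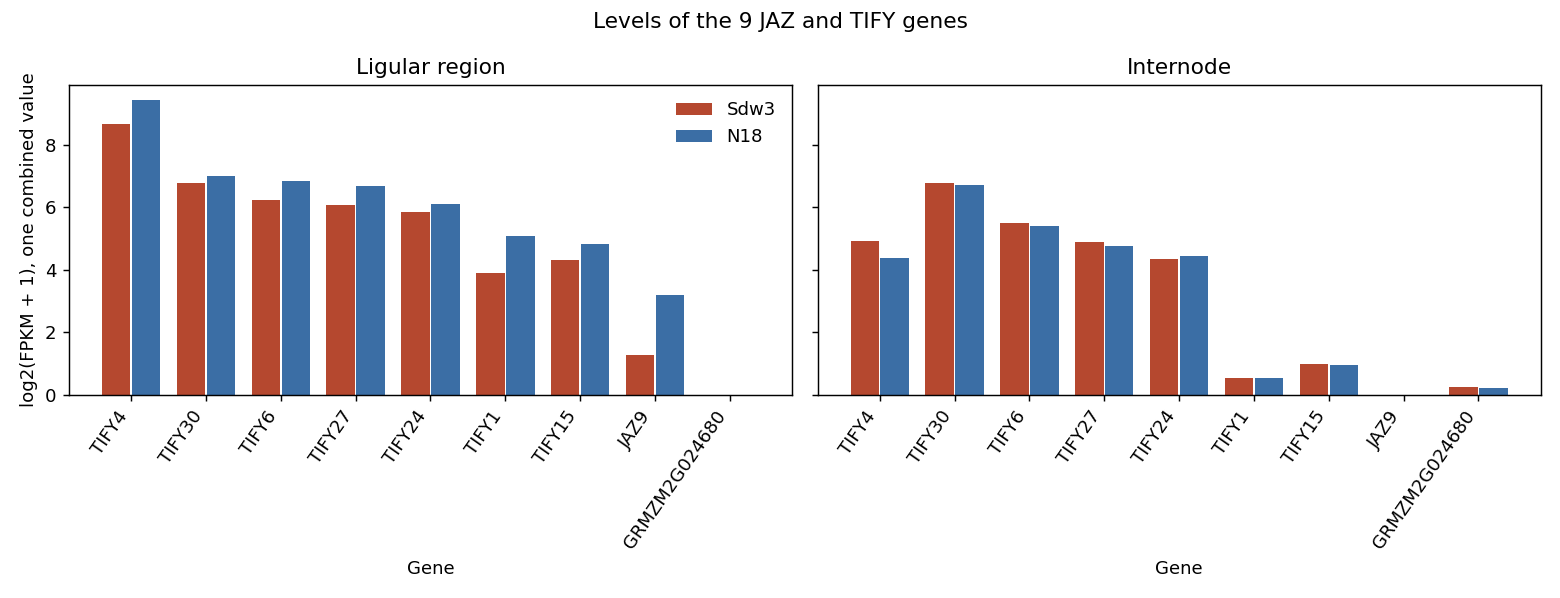
Combined FPKM of the 9 JAZ and TIFY genes on a log2(FPKM + 1) axis, Sdw3 beside N18, for the ligular region and the internode; each bar is the authors' single combined value, so it carries no error bar. In the ligular region TIFY4 stood highest, at 411 FPKM in Sdw3 and 699 in N18, while JAZ9 is listed at 0 in the internode and GRMZM2G024680 in the ligular region.

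TIFY4 was by far the most abundant of the 9 genes in the ligular region, with 411 FPKM in Sdw3 and 699 FPKM in N18. It made up 54.5% of the summed FPKM in Sdw3 and 59.4% in N18, and ranked 233rd of all genes by FPKM in Sdw3 and 99th in N18. Its level was 1.70-fold lower in Sdw3 (log2 ratio -0.77, approximate SE 0.11), and the authors' deposited table gave an adjusted p of 0.000398. That value is the smallest adjusted p in the ligular table and was shared by 2851 genes, so it does not rank the genes that have it. Without TIFY4 the sum of the other genes was 342 in Sdw3 and 477 in N18.

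JAZ9 had the largest change and the lowest level of the tested genes, at 1.44 FPKM in Sdw3 and 8.08 FPKM in N18. The log2 ratio was -2.49, with an approximate 95% interval from -3.17 to -1.81, and only 0.273% of tested genes had a lower ratio. With a pseudocount of 1 its log2 ratio was -1.90, a smaller change because the Sdw3 level is near 1 FPKM. TIFY1 came next, at 13.8 FPKM in Sdw3 and 32.9 FPKM in N18, 2.38-fold lower (log2 ratio -1.25, approximate interval -1.53 to -0.97). The approximate intervals of JAZ9 and TIFY1 did not overlap each other, nor did that of JAZ9 overlap those of the other 6 tested genes. The authors' deposited table gave both genes an adjusted p of 0.000398.

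TIFY6, TIFY27 and TIFY15, to which the authors' deposited table gave that same adjusted p of 0.000398, were lower by about the same amount as each other. TIFY6 was at 74.9 FPKM in Sdw3 and 113 FPKM in N18, a 1.51-fold decrease with an approximate interval of 1.30-fold to 1.75-fold. TIFY27 was at 67.1 FPKM in Sdw3 and 101 FPKM in N18, also 1.51-fold lower. TIFY15 was at 18.9 FPKM in Sdw3 and 27.8 FPKM in N18, 1.47-fold lower with an approximate interval of 1.25-fold to 1.74-fold. The log2 ratios of these genes were -0.59, -0.59 and -0.56 for TIFY6, TIFY27 and TIFY15, although TIFY15 was several-fold less abundant than the others.

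TIFY24 and TIFY30 differed least between the genotypes. TIFY24 was at 57.2 FPKM in Sdw3 and 67.4 FPKM in N18, a log2 ratio of -0.24 for which the authors' deposited table gave an adjusted p of 0.103. Its approximate 95% interval ran from -0.46 to -0.02, and its unadjusted p by the authors' deposited table was 0.0336. TIFY30, the second most abundant of the 9 genes here, was at 109 FPKM in Sdw3 and 126 FPKM in N18, a log2 ratio of -0.21 (approximate interval -0.45 to 0.02), and the authors' deposited table gave an adjusted p of 0.165. These intervals leave room for a decrease in Sdw3 of up to 1.37-fold for TIFY24 and 1.36-fold for TIFY30. TIFY30 shares its locus on chromosome 10 with GRMZM2G143389, which was at 11.0 FPKM in Sdw3 and 13.8 in N18, so reads may be divided between them and the value of TIFY30 is uncertain. GRMZM2G024680 is listed at 0 for both genotypes and was not tested.

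**Figure D2:**
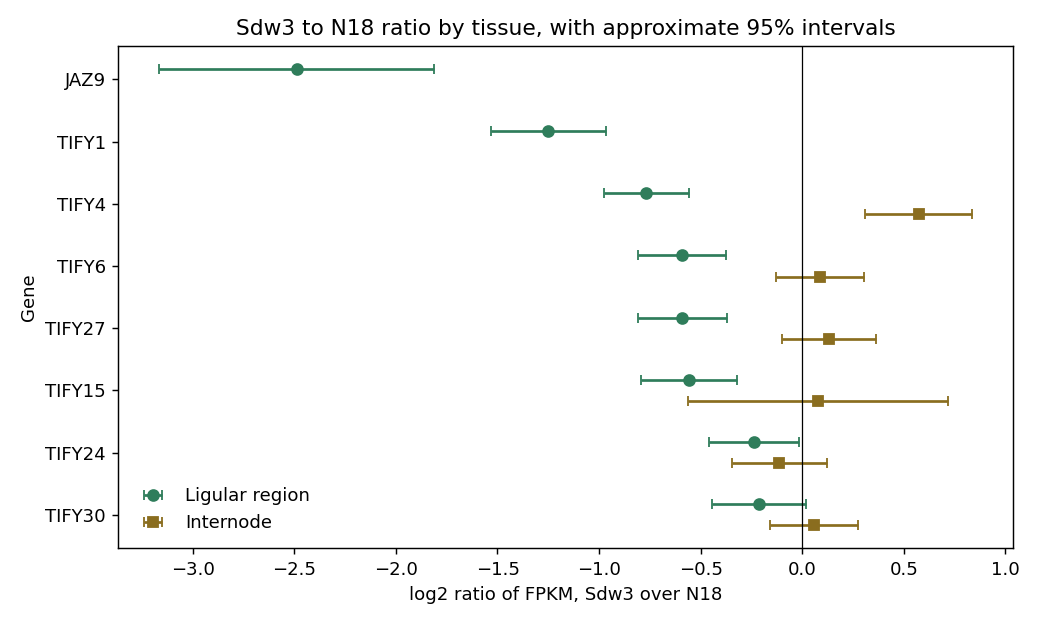
Log2 ratio of FPKM, Sdw3 over N18, for the 8 genes tested in the ligular region (circles) and the 6 of them tested in the internode (squares), with bars for approximate 95% intervals. All 8 ligular ratios lie below 0, from -2.49 for JAZ9 to -0.21 for TIFY30, while the internode ratios run from -0.11 for TIFY24 to 0.57 for TIFY4.

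The same comparison in the internode called 1 of these genes, in the opposite direction. Of the 6 genes tested, TIFY4 was called higher, 5 were not called and 0 were called lower (in the authors' deposited table also 0 at an unadjusted p under 0.05). The background over 21131 tested internode genes was 6.54% called higher and 4.76% called lower, so 1 call among 6 is too few to read as a shift of the 9 genes. Their median log2 ratio was 0.08, against -0.03 for all tested genes. The summed FPKM was 232 in Sdw3 and 215 in N18.

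TIFY4 was at 29.3 FPKM in Sdw3 and 19.7 FPKM in N18 in the internode, 1.49-fold higher. The log2 ratio was 0.57 (approximate interval 0.31 to 0.84) and the authors' deposited table gave an adjusted p of 0.00109, its smallest value, shared by 970 genes. TIFY30 was the most abundant of the 9 genes in this tissue, at 109 FPKM in Sdw3 and 105 FPKM in N18. TIFY6 followed with 44.0 FPKM in Sdw3 and 41.4 FPKM in N18. Neither was called, and the approximate intervals of their log2 ratios, -0.16 to 0.28 for TIFY30 and -0.13 to 0.31 for TIFY6, both include 0.

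TIFY27, at 28.8 FPKM in Sdw3 and 26.2 FPKM in N18, and TIFY24, at 19.4 FPKM in Sdw3 and 21.0 FPKM in N18, were given adjusted p-values of 0.540 and 0.633 by the authors' deposited table. TIFY15 was close to the lower end of what was tested, at 0.991 FPKM in Sdw3 and 0.939 FPKM in N18, and its approximate interval of -0.56 to 0.72 is the widest of the internode values. The remaining genes were not tested. TIFY1 was at 0.457 FPKM in Sdw3 and 0.453 in N18, GRMZM2G024680 at 0.197 in Sdw3 and 0.162 in N18, and JAZ9 is listed at 0 for both genotypes.

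**Figure D3:**
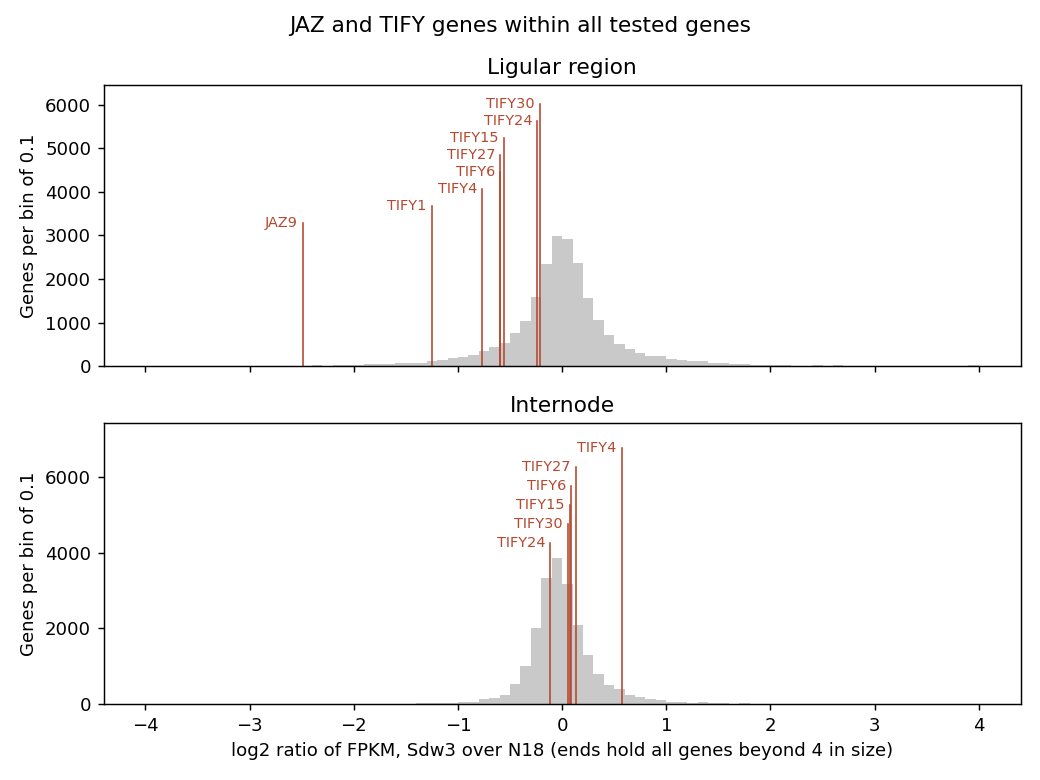
Histograms of the log2 ratio of FPKM, Sdw3 over N18, over all tested genes of each tissue in bins of 0.1, with a line for each tested JAZ or TIFY gene. In the ligular region all 8 lines fall left of 0, and 10.5% of tested genes had a lower ratio than TIFY15, while in the internode 5 of 6 lines fall close to the centre and TIFY4 lies to the right, above 94.1% of tested genes.

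Whether the Sdw3 difference itself differed between the tissues was tested for the 6 genes tested in both, as a normal deviate of the difference of the log2 ratios with Benjamini-Hochberg adjustment over 20070 genes. It passed for 3: TIFY4, TIFY27 and TIFY6, each with a lower ratio in the ligular region. Of all 20070 genes, 9.14% passed in that direction. For TIFY4 the ligular minus the internode log2 ratio was -1.34 (approximate SE 0.17, adjusted p of 9.6e-13 by that normal test). In both tissues the authors' p for TIFY4 was the smallest they give, so the size of this adjusted p rests on the rescaled SE. Genes called higher in the internode and lower in the ligular region, as TIFY4 was, made up 1.11% of those tested in both tissues.

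The difference was -0.72 in log2 ratio for TIFY27, with an adjusted p of 0.000142 by the normal test. That of TIFY6 was -0.68, with an adjusted p of 0.000232. The differences of TIFY15 (-0.63), TIFY30 (-0.27) and TIFY24 (-0.13) did not pass. Their approximate intervals were -1.32 to 0.05, -0.59 to 0.05 and -0.45 to 0.20, each of which includes 0 and overlaps that of TIFY6, -0.99 to -0.37. The calls of TIFY27 and TIFY6 depend on the standard error. With it taken from the test statistic without rescaling, their adjusted p-values by the normal test were 0.170 and 0.197. TIFY4 still passed, with an adjusted p of 0.000845 by that test.

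The levels of the 9 genes also differed between the tissues in each genotype. The tables were normalized separately, and no test was made between them. Summed over the 9 genes, FPKM in the ligular region was 3.24-fold that in the internode in Sdw3 and 5.47-fold in N18. Without TIFY4 the sums were 342 in Sdw3 and 477 in N18 in the ligular region, and 203 and 195 in the internode. Summed over all genes, FPKM was 826583 in Sdw3 and 817741 in N18 in the ligular region, and 765530 and 734039 in the internode. A median of per-gene ratios is a different measure from a ratio of sums. Over all genes with an FPKM of at least 1 in both tissues, that median was 0.882-fold in Sdw3 and 0.882-fold in N18. By its own ratio of ligular region to internode each of TIFY1, TIFY4 and TIFY15 stood above the other genes. These ratios were 30.3-fold, 14.0-fold and 19.0-fold in Sdw3 and 72.7-fold, 35.5-fold and 29.5-fold in N18. Only 2.81% of the N18 genes at 1 FPKM or more in both tissues, a set that holds TIFY4, reached 10-fold. TIFY1 and TIFY15 lie outside that set, because their ratios rest on internode levels under 1 FPKM.

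JAZ9, listed at 0 in the internode, has no such ratio. TIFY6, TIFY24 and TIFY27 were between 1.70-fold and 2.94-fold higher in the ligular region in Sdw3 and between 2.73-fold and 3.85-fold higher in N18, and TIFY30 was at 0.999-fold in Sdw3 and 1.21-fold in N18. The order of the genes therefore differed between the tissues. From the most to the least abundant, N18 ligular regions had TIFY4, TIFY30, TIFY6, TIFY27, TIFY24, TIFY1, TIFY15 and JAZ9, and N18 internodes TIFY30, TIFY6, TIFY27, TIFY24, TIFY4, TIFY15, TIFY1 and GRMZM2G024680. In the Sdw3 ligular region TIFY15 stood above TIFY1, and in the Sdw3 internode TIFY4 stood above TIFY27. Neighbours in these orders cannot be separated by their spread, which is not known.

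Several of the genes lie next to other TIFY genes (positions on B73 RefGen_v3, whole loci). TIFY1 is on chromosome 1 at 16776169 to 16777317 and TIFY4 on the same chromosome at 16791539 to 16792462, and between them lies TIFY2 (GRMZM5G838098) at 16782462 to 16783895. TIFY2 was at 36.0 FPKM in Sdw3 and 66.7 FPKM in N18 in the ligular region and was called lower. Its adjusted p from the authors' deposited table was 0.000398. All 3 genes of this cluster were thus called lower in the Sdw3 ligular region, against 13.7% of all genes tested there. TIFY2 was picked after its value was seen, and an effect of position was not tested. In the internode TIFY2 is listed at 0 in Sdw3 and was at 0.103 in N18, TIFY1 was under 0.5 FPKM, and only TIFY4 was well above 1 FPKM. Whether the authors' counting divided reads between similar neighbouring genes is not known, so the levels of genes in such clusters are uncertain.

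GRMZM2G024680 lies on chromosome 1 at 244829628 to 244830954, with TIFY9 (GRMZM2G145412) 54471 bases and TIFY10 (GRMZM2G145458) farther away at higher coordinates. Although GRMZM2G024680 is listed at 0 in the ligular region, TIFY9 was at 16.0 FPKM in Sdw3 and 44.8 in N18 there, and TIFY10 at 14.0 in Sdw3 and 27.2 in N18. The other genes stand apart from further TIFY genes in the files. TIFY6 is on chromosome 1 at 69894563 to 69897090. JAZ9 is on chromosome 2 at 65326352 to 65328811 and TIFY15 on the same chromosome at 184649166 to 184651569. TIFY24 is on chromosome 7 at 108871319 to 108874327, TIFY27 on chromosome 7 at 165496238 to 165498650, and TIFY30 on chromosome 10 at 145369298 to 145375250.

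Another 13 genes carry a TIFY name in the gene table, and 7 of them were called lower in the Sdw3 ligular region, 0 higher and 6 not called, read against the same 13.7% for all tested genes. Their median log2 ratio was -0.65. Those with the largest called decreases were TIFY9 (log2 ratio -1.48), TIFY20 (-1.15; 35.4 FPKM in Sdw3 and 78.5 FPKM in N18), TIFY28 (-1.02; 106 FPKM in Sdw3 and 215 FPKM in N18) and TIFY10 (-0.96), to each of which the authors' deposited table gave an adjusted p of 0.000398. TIFY25, the most abundant of the 13, was at 274 FPKM in Sdw3 and 422 FPKM in N18. JAZ9 thus had the lowest ratio of the 21 TIFY genes tested in the ligular region, and TIFY17, at 0.11, the highest.

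In contrast TIFY12, TIFY17, TIFY18, TIFY21 and TIFY23 had log2 ratios between -0.14 and 0.11 in the ligular region and were not called; TIFY29, at 0.491 FPKM in Sdw3 and 1.05 in N18, was not called either. In the internode 8 of the 13 were tested and only TIFY18 was called, higher in Sdw3 at 1.94 FPKM against 0.962 FPKM in N18, and the authors' deposited table gave it an adjusted p of 0.0296. Over the 22 genes of both sets, GRMZM2G024680 included, 13 of 21 tested were called lower in the ligular region, against 13.7% of all tested genes. In the internode 2 of 14 tested were called higher and 0 lower, against 6.54% and 4.76% of all tested genes. These internode calls are too few to read as a shift of the family.

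**Figure D4:**
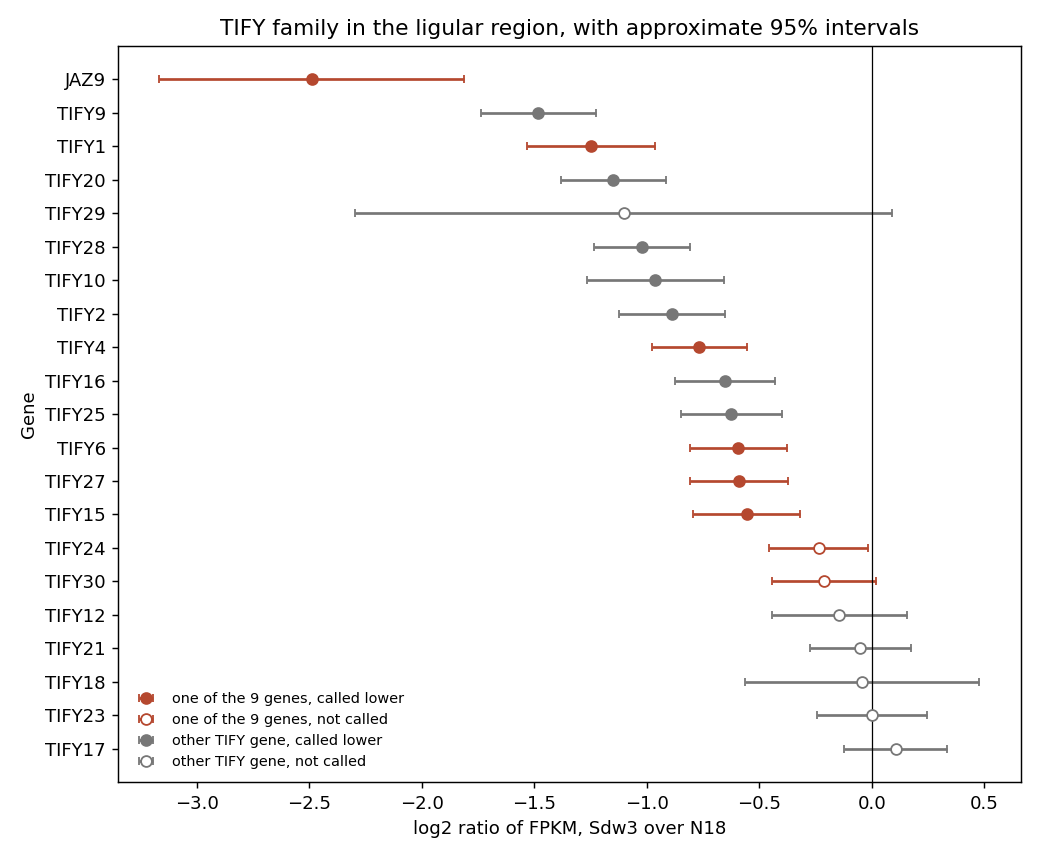
Log2 ratio of FPKM, Sdw3 over N18, in the ligular region for the 21 tested TIFY genes, with approximate 95% intervals; filled points were called lower and open points were not called. Called genes spread from -2.49 for JAZ9 to -0.56 for TIFY15, and uncalled ones, apart from the weakly expressed TIFY29, lie between -0.24 and 0.11.

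Genes of the pathway around the repressors were counted from lists of gene names. MYC2a (GRMZM2G001930), a maize gene named for the MYC2 factor that JAZ proteins repress in Arabidopsis, was at 58.7 FPKM in Sdw3 and 85.3 FPKM in N18 in the ligular region, log2 ratio -0.54, and was called lower (adjusted p of 0.000398 from the authors' deposited table). In the internode it was called higher, at 40.8 FPKM in Sdw3 and 29.5 FPKM in N18 (log2 ratio 0.47, adjusted p of 0.00109 from the authors' deposited table). The tissue difference of its ratio, -1.01, passed the normal test with an adjusted p of 2.7e-09, a size that likewise rests on the rescaled SE. MYC2a and TIFY4 were thus each called in opposite directions in the 2 tissues. So were lox7, lox10, aos2 and opr2 of the jasmonate synthesis list and bx6 of the wound and defence genes, both described next. The TOPLESS-type corepressor genes rel2, RELK2 and RELK3 were not called in either tissue, with log2 ratios between -0.20 and 0.11. This list held 4 names, none of them COI1 or NINJA, so no level is given for a receptor or adaptor gene.

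The jasmonate synthesis list holds genes named as lipoxygenases, allene oxide synthases and cyclases, and 12-oxo-phytodienoic acid reductases. It was made by name, and the names do not say which of these genes act in jasmonate synthesis. In the Sdw3 ligular region 13.7% of all tested genes were called lower and 13.1% higher. Of the listed genes 14 of 21 tested were called lower and 2 higher, with a median log2 ratio of -0.51. The leading ones were lox7, at 1.78 FPKM in Sdw3 and 5.16 FPKM in N18, and ts1, whose lipoxygenase acts in tassel sex determination, at 43.2 FPKM in Sdw3 and 109 FPKM in N18. They were followed by opr2 (log2 ratio -0.87) and lox3 (-0.85), and the authors' deposited table gave all 4 an adjusted p of 0.000398. In the internode 9 of 20 were called higher and 1 lower, against 6.54% and 4.76% of all tested genes, led by opr5 (log2 ratio 2.73), opr2 (1.52), aos1 (1.16) and lox1 (1.12), to which the authors' deposited table gave an adjusted p of 0.00109. Only TIFY4 of the 6 JAZ and TIFY genes tested there was called higher beside them. The internode ratio of opr2 rests on low levels, 2.14 FPKM in Sdw3 and 0.745 FPKM in N18, and was 0.85 with a pseudocount of 1.

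Wound and defence genes changed in both directions in the ligular region. Of 24 tested, 11 were called higher and 5 lower in Sdw3, with a median log2 ratio of 0.26; the shares over all tested genes were 13.1% higher and 13.7% lower. The wound-induced inhibitor gene wip1 was at 940 FPKM in Sdw3 and 396 FPKM in N18 (log2 ratio 1.25), the benzoxazinoid genes bx1 and bx2 had log2 ratios of 2.76 and 1.18, and the chitinase gene chiI was at 482 FPKM in Sdw3 and 233 FPKM in N18. The authors' deposited table gave these 4 an adjusted p of 0.000398. The ratio of bx1 rests on low levels, 4.59 FPKM in Sdw3 and 0.679 FPKM in N18, and was 1.74 with a pseudocount of 1. Those called lower were the benzoxazinoid gene bx6, at 213 FPKM in Sdw3 and 332 FPKM in N18 (log2 ratio -0.64), and cc5 (-0.54), chn1 (-0.54), cc3 (-0.37) and chiB (-0.36). MPI, a proteinase inhibitor gene, was at 350 FPKM in Sdw3 and 299 FPKM in N18 and was not called. In the internode 7 of 18 were called higher and 0 lower, against 6.54% and 4.76% of all tested genes, among them bx6 (log2 ratio 0.82), bx9 (0.47), PR-5 (0.97) and bx2 (0.35), whose adjusted p-values from the authors' deposited table were 0.00109, 0.00109, 0.00201 and 0.0134.

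**Figure D5:**
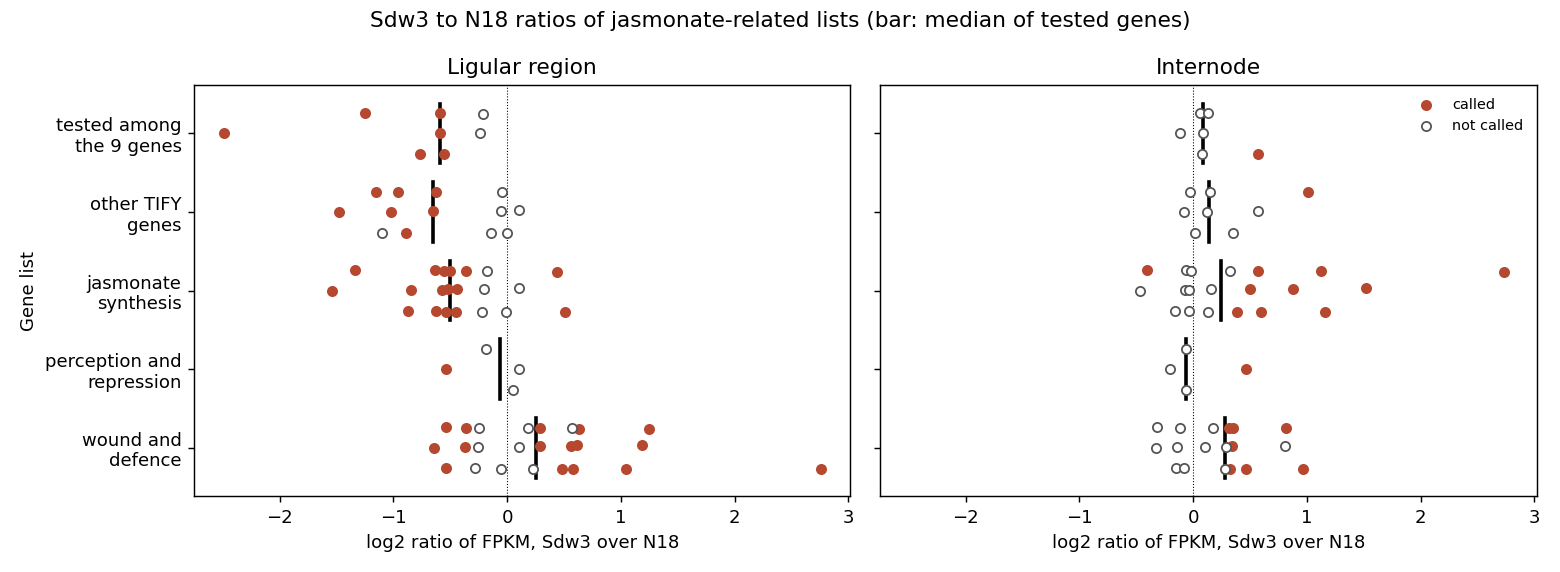
Log2 ratio of FPKM, Sdw3 over N18, for each tested gene of the JAZ and TIFY set and of 4 lists, in the ligular region and the internode; filled points were called, open points were not, and the black bar is the median of the tested genes. Medians in the ligular region are -0.59 for the JAZ and TIFY genes, -0.65 for other TIFY genes, -0.51 for the jasmonate synthesis list and 0.26 for wound and defence genes.

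Markers of other tissue types moved in the same comparisons, and their part in the JAZ and TIFY differences was not tested. Over all tested genes 13.7% were called lower and 13.1% higher in the ligular region, and 4.76% lower and 6.54% higher in the internode. A single call in a short list is too few to read as a shift. In the ligular region 4 of 5 lignifying tissue markers were tested, and all 4 were called lower in Sdw3. The fifth, lac3, was near 0 and was not tested. Their summed FPKM was 792 in Sdw3 and 1362 in N18, most of it from pal3, at 681 in Sdw3 and 1168 in N18. Of 11 green blade markers 4 were called higher and 1 lower, with a sum of 7436 in Sdw3 and 7032 in N18. The largest part came from Cab-m7, which was not called, at 2738 in Sdw3 and 2607 in N18. By contrast pep1, called higher, was at 175 in Sdw3 and 35.1 in N18. The meristem and stem markers kn1 and gnarley1 are listed at 0 in both genotypes of that tissue and the phloem marker sut1, at 93.9 in Sdw3 and 101 in N18, was not called. Among the ligule and leaf patterning markers 1 of 2 tested was called higher, lg2, at 2.95 in Sdw3 and 0.925 in N18, and the sum of all 5 was 18.6 in Sdw3 and 16.5 in N18. In the internode 1 of 9 tested green blade markers was called higher and 3 lower, with a sum of 1262 in Sdw3 and 1389 in N18, and 1 of 3 tested ligule and leaf patterning markers, lg3, was called higher, with a sum over the list of 93.6 in Sdw3 and 70.7 in N18. None of the lignifying, stem or phloem markers tested there was called, and lac3 is listed at 0 in both genotypes.

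Genes whose levels were most like the mean of the 9 genes were sought over the 4 combined values, as the smallest Euclidean distance between centred log2(FPKM + 1) profiles among 5115 named genes that reached 5 FPKM in some condition. The nearest were cl173_1a (GRMZM2G095141; distance 0.114), MAPKKK (GRMZM6G513881; 0.119), pco103470b (GRMZM5G870446; 0.126), pco093521a (GRMZM2G005939; 0.129) and the chlorophyll-binding protein gene lhcb6 (GRMZM2G092427; 0.161). MAPKKK, for example, was at 19.1 FPKM in Sdw3 and 33.1 FPKM in N18 in the ligular region and at 5.93 and 5.70 FPKM in the internode. With 4 values per gene, such likeness describes the shape of the profile and carries no test.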

How the data were processed

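RNA sequencing reads of 12 samples (4 groups of 3) went through TopHat2 2.1.0, Cufflinks, bcl2fastq and CASAVA 1.8, with B73 RefGen_v3 as the build, per the submitters' processing notes. Normalization between libraries is not given in the sources used here, and neither is the annotation. The authors deposited 1 FPKM per gene, genotype and tissue; the unit is read from Cufflinks and the column layout, since the file headers do not name it. The score is the authors' test statistic, of opposite sign to the log2 ratio, and each p-value and adjusted q-value is the authors' own, per the file headers. Log2 ratios, Sdw3 over N18, were recomputed from FPKM without a pseudocount, because spreadsheet errors had replaced part of the deposited column.

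The model planned for values per sample could not be run on combined values, so the authors' q-value was used, as the plan allowed. Recomputed Benjamini-Hochberg values differed from theirs by at most 5.3e-07. Approximate standard errors are the log2 ratio over the statistic, divided by 1.74 (internode) or 1.71 (ligular region), the median of the normal quantile of p over the statistic over 18832 and 18671 genes. They carry the authors' error model, not a spread measured here. The calculation of the tissue test was tested on simulated data drawn with these standard errors, which does not test the standard errors themselves.

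All 9 genes are named; of each list up to 4 called genes per tissue (smallest adjusted p, then largest change) and MYC2a are named, and TIFY2, TIFY25, MPI, lox10, aos2, the defence genes called lower, the uncalled TIFY genes and the markers given were chosen after their values were seen. The genes and lists were chosen with earlier results of these data known. Names came from a RefSeq table of Zm-B73-REFERENCE-NAM-5.0, which matched 18962 of 39514 identifiers; lox12 and lac4 had no single match. Genome and protein sequences were not used here. Tools were matplotlib 3.10.9, scipy 1.17.1, pandas 2.3.3 and numpy 2.4.6 in Python 3.11.15.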

Additional observations from a re-analysis of the deposited data

Results flagged for a closer look

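The Sdw3 to N18 log2 ratio differed between the tissues by the normal test for 3 of the 6 JAZ and TIFY genes tested in both, each with the lower ratio in the ligular region, as for 9.14% of all 20070 genes. The ligular minus the internode log2 ratio was -1.34 for TIFY4, which was 1.70-fold lower in Sdw3 in the ligular region and 1.49-fold higher in the internode. It was -0.72 for TIFY27 and -0.68 for TIFY6, whose internode ratios of 0.13 and 0.09 were not called. With the standard error not rescaled, TIFY27 and TIFY6 did not pass (adjusted p of 0.170 and 0.197 by the normal test), while TIFY4 did.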

How the results depend on the processing

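No paired analysis was possible because the tables hold 1 combined value per genotype and tissue, and for the same reason leaving out single replicates was not run. Under thresholds of 0.01 and 0.1, both scalings and adjustment over genes with an FPKM of at least 1, the counts of called genes were as in the report in both tissues. Leaving out TIFY30 for its shared locus could not change these counts, because TIFY30 was called in neither tissue. A minimum change of 1.5-fold left 5 genes lower in the ligular region and 0 higher in the internode. At 2-fold, 2 remained lower in the ligular region (JAZ9 and TIFY1) and 0 were higher in the internode. The shares of all tested genes at these fold limits were not worked out, so these counts have no background to be read against. With the test statistic not rescaled, the number of genes whose ratio differed between tissues was 1 in place of 3, since the standard errors are then larger by construction. Median log2 ratios ranged from -0.59 to -0.57 in the ligular region and from 0.07 to 0.11 in the internode over pseudocounts, scalings and the filter on low values. Depth is unknown, so no detection limit can be given for genes listed at 0.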
